A study of Mus musculus with 6 samples.

Results

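Lysine acylation attaches acetyl groups, and longer or more acidic acyl groups, to lysines of histones and other proteins. Writers attach the group, and most of them take it from coenzyme A. Erasers (the zinc-dependent Hdac enzymes and the NAD-dependent sirtuins) remove it, and readers bind it through bromodomains or YEATS domains. Acetylated histones mark active promoters and enhancers, and in macrophages several of these enzymes are known regulators of inflammatory genes. A module of 40 such genes was followed here by gene symbol: 14 writers, 2 enzymes that supply acyl-coenzyme A, 18 erasers and 6 readers. Of these genes 38 had at least 1 peak of open chromatin, and Sirt6 and Sirt7 were not analysed here. They held 267 distinct peaks of 92864 in all, and the whole table covered 18755 genes.

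Open chromatin was profiled by ATAC-seq, in which the transposase Tn5 inserts sequencing adapters into accessible DNA. The cells came from wild-type mice carrying orthotopic SB28 tumours in the brain. SB28 is a mouse glioma cell line. From these tumours 2 populations positive for F4/80 and CD11b were sorted. Microglia (MG), which live in the brain from early development, had low CD45 and little or no CD49d. Bone marrow derived macrophages (BMDM) were CD45+ with high CD49d. In both gates Ly6C was low or absent and Ly6G was absent. There were 3 libraries of each, and the labels do not say that they came from separate animals, so a p-value here reflects how much these libraries vary, which may be technical. The mice's ages are not stated in the labels used, and no group without a tumour is part of the comparison.

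The deepest library, MG 2, had 23601865 reads in peaks and the shallowest, BMDM 3, had 4910448. The counts given below were put on a common scale with the authors' size factors and are called normalized counts. The level that 3 reads would give lay between 1.64 normalized counts (MG 2) and 5.95 (BMDM 1), which covers counting error only, and reads amplified by PCR are not independent molecules. Summed counts of 9 microglial marker genes, such as P2ry12 and Sall1, were 12398, 8916 and 9081 in MG 1 to 3 and 5933, 5578 and 5129 in BMDM 1 to 3. Marker genes of monocytes and macrophages gave 2544, 2818 and 2417 in MG and 6586, 6254 and 3752 in BMDM, so each group was higher for its own markers. All 8 genes of a neural and glial marker list also had peaks, and their sum was 8545 in MG 2 and 4504 in MG 3, against 1612 in MG 1 and 1801 to 1918 in the BMDM libraries. The list for T, NK and B cells was higher in BMDM, at 415 to 623 against 144 to 183 in MG, while neutrophil genes (784 to 1288 in MG, 1056 to 1584 in BMDM) and endothelial genes (4200.3 to 4886 and 3214 to 4628) overlapped. Values with MG 1 as the only MG library are given beside some results only, among them the member promoter sums that passed. In bulk libraries, fewer cells of a type and less open chromatin per cell cannot be told apart.

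Every peak belongs to the gene whose start site the authors' annotation placed nearest. Peaks within 3 kb of that start site are the promoter class and all others are called distal. Of the 267 peaks of the module, 98 belonged to writers, 8 to the acyl-coenzyme A enzymes, 112 to erasers and 49 to readers. The promoter class held 72 peaks and 195 were distal, and 42.7% of the members' peaks were intronic against 32.7% of all peaks. Peaks present in every library's own peak list were 38 of the 72 promoter peaks (52.8%, against 37.1% of all promoter peaks) and 13 of the 195 distal peaks (6.67%, against 8.15%). The lists differ in depth: BMDM 3 listed 7.69% of the members' distal peaks and MG 2 listed 69.2%, so a peak missing from a list is not shown to be closed there.

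Promoter counts were summed per gene and compared with limma, a linear model fitted over all 15249 genes with a promoter peak, with Benjamini-Hochberg adjustment and a threshold of 0.05. Differences are log2 BMDM over MG, given relative to the median gene, because the median promoter was itself lower in BMDM by a log2 difference of -0.31. The tests apply to the unshifted difference. Of 36 members with a promoter peak, 3 were higher in MG and 0 in BMDM. These are 8.33% of the members, and over all genes 11.9% passed, 9.16% higher in MG and 2.75% higher in BMDM, so the members' share was near the background. At an unadjusted p under 0.05, 0 members were higher in BMDM and 5 in MG (over all genes 4.95% and 18.1%), and limma with voom weights also called 0 higher in BMDM. With other scalings the split of 0 higher and 3 lower in BMDM became 1 and 3 (totals of reads in peaks) or 2 and 2 (cyclic loess). All 3 members called in the main fit were erasers: Hdac5, Hdac11 and Hdac10. With totals of reads in peaks Ncoa1 was called and Hdac10 was not. Hdac10 also lost its call with cyclic loess and with scaling by a trimmed mean of M values. The median difference was -0.20 over 15 erasers, -0.01 over 14 writers and 0.03 over 6 readers.

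**Figure D1:**
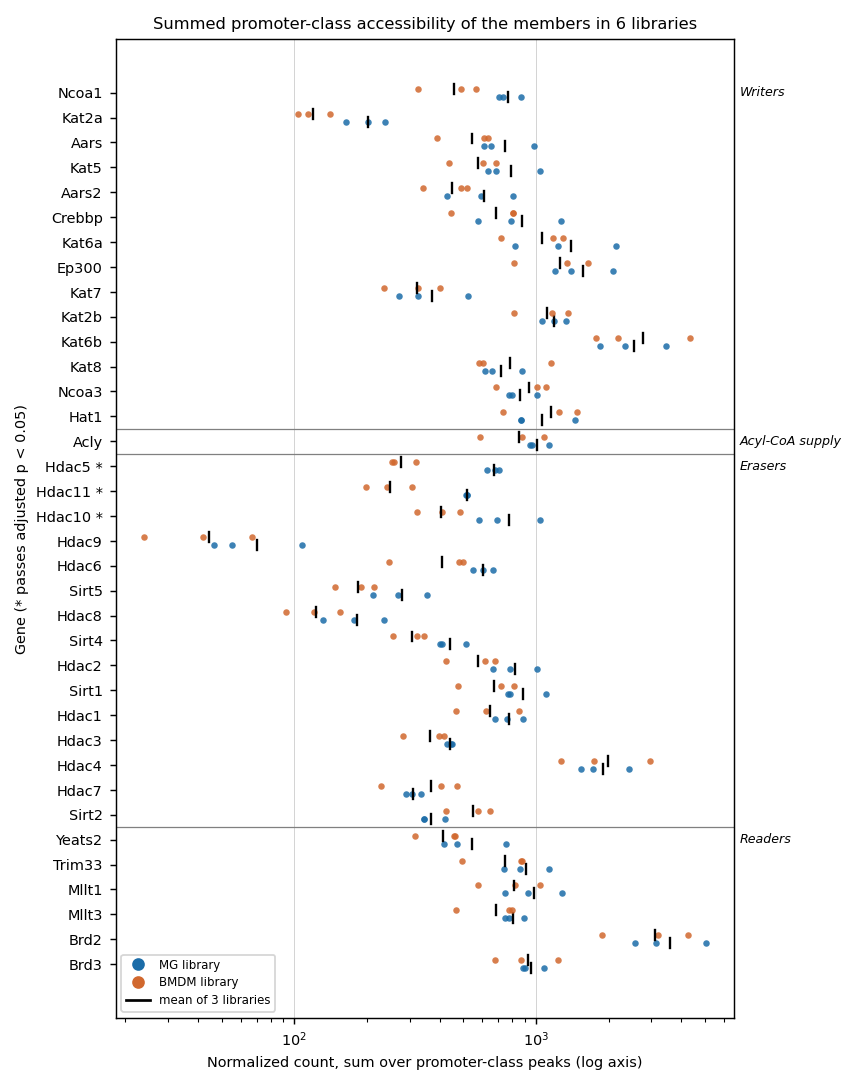
Summed promoter counts of the 36 members with a promoter peak, by role and, within a role, from the lowest to the highest difference; the horizontal axis is the normalized count on a log axis. Points are the 3 MG and 3 BMDM libraries, bars are the means, and asterisks mark Hdac5, Hdac11 and Hdac10, which passed the test.

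The plot of promoter sums shows most members with overlapping groups. In 8 of 36 members every BMDM library lay below every MG library (22.2%, against 23.0% of all genes), and in 1 member every BMDM library lay above (2.78%, against 5.36%). MG 1 was the highest MG library in 27 of 36 members and BMDM 3 the lowest BMDM library in 35 of 36, so most members shared a library order at promoters. Among 29 members with a distal peak, MG 1 was highest in MG in 10 and BMDM 3 lowest in BMDM in 11. Promoter-class peaks held 69.2% of reads in MG 1, the highest share of any library, and 59.0% in BMDM 3, the lowest. The cause of the shared order was not tested, and these counts are not given for all genes. The variance that limma shares across genes took nearly all of the weight at promoters, so these p-values hardly use a promoter's own spread.

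Among the writers no promoter passed the test. Ep300 and its paralogue Crebbp are broad acetyltransferases that mark active enhancers and promoters. The Ep300 promoter sum was 2081, 1200.4 and 1400.4 normalized counts in MG 1 to 3 and 1637, 1342 and 808 in BMDM 1 to 3. Its difference was -0.01 ± 0.40 (log2, SE) with an adjusted p of 0.666, and the groups overlapped. The Crebbp promoter gave 1270.1, 576 and 789 normalized counts in MG 1 to 3 and 801, 800.3 and 446 in BMDM 1 to 3, again with overlapping groups. Its difference was -0.02 ± 0.34 (log2, SE) with an adjusted p of 0.596. Without MG 1 both values turned positive, 0.11 for Ep300 and 0.17 for Crebbp, so neither has a direction.

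Ncoa1, a coactivator of nuclear receptors, had the smallest p of the writers. Its promoter gave 870.2, 734 and 706 normalized counts in MG 1 to 3 and 492, 565 and 324 in BMDM 1 to 3, and all BMDM libraries were below all MG libraries. The difference was -0.46 ± 0.33 (log2, SE) with an adjusted p of 0.115. It passed with scaling by total reads in peaks (adjusted p = 0.0346). Kat2a, the acetyltransferase of the SAGA and ATAC complexes, was likewise lower in every BMDM library, with 164, 238 and 201 normalized counts in MG 1 to 3 and 141, 114 and 103 in BMDM 1 to 3. Its difference was -0.43 ± 0.34 (log2, SE) with an adjusted p of 0.156. With MG 1 as the only MG library it was 0.033, relative to a median promoter of -0.50 in that fit. MG 1 itself was above every BMDM library, so only the sign relative to the median gene rests on MG 2 and MG 3. Aars, the cytoplasmic alanyl-tRNA synthetase that can also transfer lactyl groups to lysine, came next and overlapped between groups, at 984, 649.9 and 607 normalized counts in MG 1 to 3 and 635, 609 and 389 in BMDM 1 to 3. Its difference was -0.14 ± 0.33 (log2, SE) with an adjusted p of 0.443. The other writers' promoters lay between -0.13 (Kat5, the catalytic subunit of the TIP60 complex) and 0.42 (Hat1, which acetylates newly made histone). Kat2b lay at 0.18, Kat6a at -0.02, Kat6b at 0.37, Kat7 at 0.13, Kat8 at 0.38, Ncoa3 at 0.41 and Aars2, the mitochondrial synthetase, at -0.09.

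RefSeq promoter windows (GRCm38.p6, 250 bases before to 50 after a start) were found for 32 of the members with a peak, 45 windows in all, and 39 of the 45 overlapped a peak. Windows of a gene can overlap, so motifs were counted once per gene. The ETS motif CCGGAAGT was in 6 genes (Hat1, Kat5, Kat7, Kat8, Mllt1 and Sirt3), 18.8% against 4.31% of all 27025 genes with a window. NRF1 (GCGCATGCG) was in 1 gene (3.12%, against 1.95%) and YY1 (AAGATGGCG) in 2 (6.25%, against 1.64%). SP (GGGCGGGG) was in 12 (37.5%, against 19.6%), NFY (CCAAT) in 18 (56.2%, against 41.1%) and the E-box CACGTG in 5 (15.6%, against 8.09%). PU.1 (GAGGAAGT) was in 1 (3.12%, against 3.69%), and CRE (TGACGTCA) and ZNF143 (ACTACAATT) were in 0 (against 2.03% and 0.45%). All 32 members have a peak, while the 27025 genes include genes without one, so the 2 sets are not alike. Both strands were searched, ETS and PU.1 share the core GGAAGT, and these shares are a description only. Kat8, the catalytic subunit of the MSL and NSL complexes, is shown because its window holds both the ETS and the NFY letters and its promoter overlapped between groups. The window is chr7:127912267-127912566 on the + strand, and capitals mark the motif matches.
Kat8 promoter: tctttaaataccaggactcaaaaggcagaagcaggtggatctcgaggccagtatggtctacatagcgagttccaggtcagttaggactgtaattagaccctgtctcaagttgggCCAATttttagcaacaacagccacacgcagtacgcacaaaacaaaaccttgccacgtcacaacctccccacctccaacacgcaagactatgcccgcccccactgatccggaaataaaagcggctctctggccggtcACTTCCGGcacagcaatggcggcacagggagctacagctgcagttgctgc

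Of the distal sums, 28 members could be tested, and Aars2 had too few counts. No member was called, at 0 of 28, against 1.29% of all genes (0.987% higher in BMDM and 0.3% higher in MG). At an unadjusted p under 0.05, 2 members were higher in BMDM (Acly and Sirt3) and 1 in MG (Hdac9), against 12.8% and 10.3% of all genes. With voom weights limma called 0 distal sums over all genes, so that fit could not call a member and says nothing about them. Groups did not overlap in 5 members: all BMDM libraries were below MG in 4 (14.3%, against 13.6% of all genes) and above in 1 (3.57%, against 14.8%). For the distal sums the median gene had a log2 difference of -0.11, and differences are given relative to it.

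**Figure D2:**
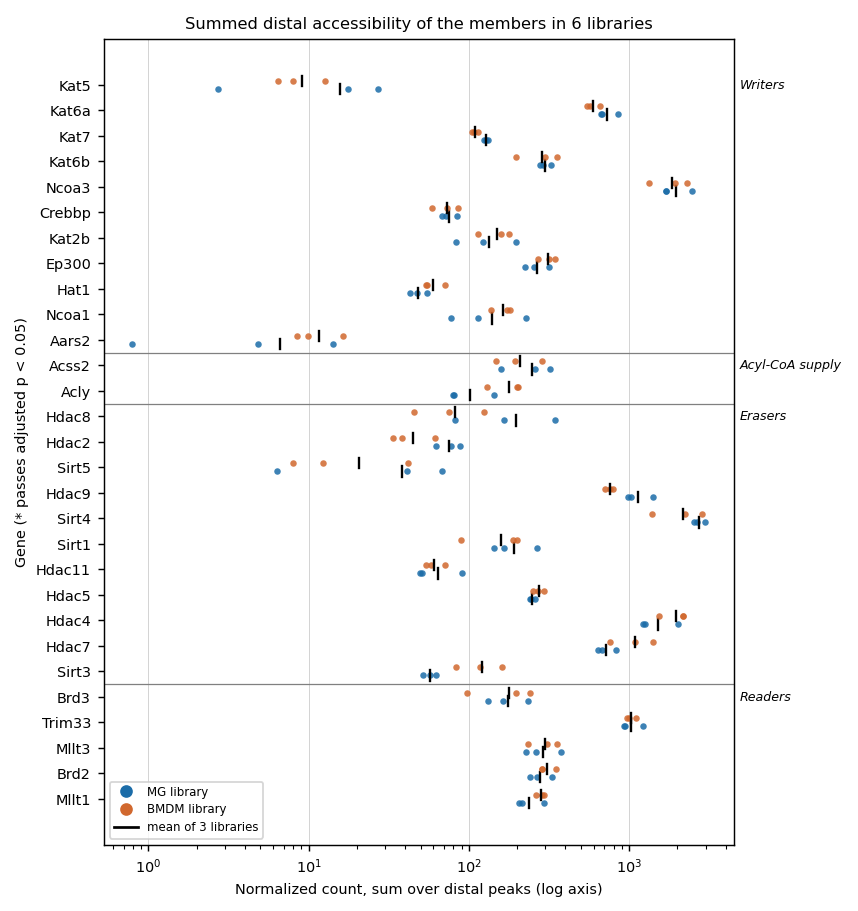
Summed distal counts of the 29 members with a distal peak, by role and difference; the horizontal axis is the normalized count on a log axis. Points are libraries and bars are means of 3. Sirt3 lies higher in every BMDM library, and Hdac9, Hdac2, Kat6a and Kat7 lie lower in every BMDM library.

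Among the writers, Kat6a and Kat7, the catalytic subunits of the MOZ and HBO1 complexes, had distal sums that were lower in every BMDM library. Kat6a gave 850.4, 677 and 665 normalized counts in MG 1 to 3 and 655, 569.8 and 549 in BMDM 1 to 3 over 15 peaks, with a difference of -0.19 ± 0.23 (log2, SE) with an adjusted p of 0.457. Kat7 gave 132, 125 and 128 normalized counts in MG 1 to 3 and 113, 107 and 105 in BMDM 1 to 3, with a difference of -0.13 ± 0.24 (log2, SE) with an adjusted p of 0.587. Distal Ep300 counts overlapped between groups at 225, 315 and 256 normalized counts in MG 1 to 3 and 268, 344 and 317 in BMDM 1 to 3, and the difference was 0.34 ± 0.24 (log2, SE) with an adjusted p of 0.60. Crebbp had 71.4, 84.2 and 68.0 normalized counts in MG 1 to 3 and 73.4, 58.9 and 85.1 in BMDM 1 to 3 at its 2 distal peaks, at 0.06 ± 0.30 (log2, SE) with an adjusted p of 0.934. No distal sum of a writer passed the test. The other writers' distal differences ran from -0.25 (Kat5) to 0.47 (Ncoa1).

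A single region near Ep300 did differ. The intergenic peak chr15:81545462-81546440 (mm10) lies at -38957 bases from the start site that the authors' table names for Ep300. It held 16.7, 13.1 and 13.6 normalized counts in MG 1 to 3 and 47.6, 66.0 and 47.1 in BMDM 1 to 3. Every BMDM library was above every MG library, and the difference was 1.94 ± 0.37 (log2, SE) with an adjusted p of 0.0295, here and for all single peaks relative to the median peak. The peak was in 2 of the 3 BMDM peak lists and in none of the MG lists. Of the 98 writer peaks 89 were tested, and this was the only 1 called, against 6.87% of all peaks (5.33% higher in BMDM).

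The acyl-coenzyme A enzymes are Acly, which makes acetyl-coenzyme A from citrate, and Acss2, which makes it from acetate. The Acly promoter gave 1129, 964 and 942 normalized counts in MG 1 to 3 and 1083, 873 and 587 in BMDM 1 to 3 with overlapping groups, and its difference was 0.02 ± 0.36 (log2, SE) with an adjusted p of 0.662. Its 4 distal peaks summed to 80.9, 144 and 79.7 normalized counts in MG 1 to 3 and 200.4, 202 and 130.4 in BMDM 1 to 3. MG 2 lay above BMDM 3 and the other libraries were separated. This difference was 0.94 ± 0.33 (log2, SE) with an adjusted p of 0.184. Most of it came from the intergenic peak chr11:100536064-100536751, with 32.5, 42.6 and 32.1 normalized counts in MG 1 to 3 and 143, 137 and 54.3 in BMDM 1 to 3. Here every BMDM library was higher, at 1.64 ± 0.42 (log2, SE) with an adjusted p of 0.0579, and the authors' deposited table gives this peak an adjusted p of 0.00920. Acss2 had 2 distal peaks and 322, 259.6 and 159 normalized counts in MG 1 to 3 and 286, 193 and 147 in BMDM 1 to 3, overlapping between groups at -0.13. It had no promoter peak of its own, because the peak over its RefSeq start belongs to the neighbouring gene Ggt7 in the authors' table. That peak held 1767, 1003 and 1294 normalized counts in MG 1 to 3 and 2049, 1186 and 777 in BMDM 1 to 3, also overlapping, with a difference of 0.04.

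Hdac5, a class IIa deacetylase that shuttles between nucleus and cytoplasm and represses MEF2 targets, had the largest promoter difference of the module. Its 3 promoter peaks summed to 678, 706 and 629 normalized counts in MG 1 to 3 and 258, 318 and 254 in BMDM 1 to 3. The lowest MG library was well above the highest BMDM library. The difference was -0.97 ± 0.32 (log2, SE) with an adjusted p of 0.00156. It was lost only when MG 1 stood alone for MG, a setting chosen after the data were seen (-0.80, adjusted p = 0.166), and held in the other 15 settings.

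The 3 peaks differed in how the libraries behaved. The peak chr11:102216636-102217001, 1 to 2 kb from an internal start site, held 111, 89.6 and 85.5 normalized counts in MG 1 to 3 and 35.7, 36.3 and 27.2 in BMDM 1 to 3, and passed on its own at -1.37 ± 0.32 (log2, SE) with an adjusted p of 0.0305. The start-site peak chr11:102218426-102219351 held 537, 339 and 367 normalized counts in MG 1 to 3 and 198, 256 and 168 in BMDM 1 to 3. All MG libraries were above all BMDM libraries there too, at -0.85 ± 0.32 (log2, SE) with an adjusted p of 0.0883. In the third peak, chr11:102201148-102202025, MG 1 was at the BMDM level: the counts were 30.1, 277 and 176 normalized counts in MG 1 to 3 and 23.8, 25.9 and 58.0 in BMDM 1 to 3. MG 2 and MG 3, the libraries with more signal at neural and glial markers, were the high ones in this peak, and the part of other cells in it was not tested. Without that peak the sum was 648, 429 and 453 normalized counts in MG 1 to 3 and 234, 292 and 196 in BMDM 1 to 3, still with no overlap and a ratio of MG to BMDM means of 2.12, against 2.43 for all 3 peaks.

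These peaks lie inside the gene: the centre of the called peak is 13354 bases from the RefSeq 5′ end of Hdac5. The RefSeq start itself is in a peak that the authors' table gives to Mir8101. That peak held 856, 493 and 574 normalized counts in MG 1 to 3 and 557, 534 and 359 in BMDM 1 to 3, its groups overlapped and its difference was -0.26 ± 0.34 (log2, SE) with an adjusted p of 0.519. Its window is printed to mark where the upstream start is, chr11:102230123-102230422 on the - strand, with matches to CACGTG and to CCAAT or its reverse complement in capitals.
Hdac5 promoter: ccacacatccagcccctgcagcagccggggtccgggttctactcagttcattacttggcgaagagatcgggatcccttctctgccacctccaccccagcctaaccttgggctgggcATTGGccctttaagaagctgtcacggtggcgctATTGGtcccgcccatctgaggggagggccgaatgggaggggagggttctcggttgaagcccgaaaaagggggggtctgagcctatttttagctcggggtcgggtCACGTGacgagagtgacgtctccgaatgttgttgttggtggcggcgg

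Distal Hdac5 peaks did not follow the promoter. Their sum was 242, 243 and 258 normalized counts in MG 1 to 3 and 252, 293 and 269.9 in BMDM 1 to 3, with overlapping groups at 0.24 ± 0.22 (log2, SE) with an adjusted p of 0.75. A fit of distal over promoter counts per gene tests whether the 2 differ. For Hdac5 log2 distal over promoter was -1.48, -1.53 and -1.28 in MG 1 to 3 and -0.03, -0.12 and 0.09 in BMDM 1 to 3. The shift was 1.17 ± 0.22 (log2, SE) relative to the median gene, with an adjusted p of 0.0307. Hdac5 was the only call among 26 members with both sums, 1 higher in BMDM and 0 in MG, against 4.16% of all genes (3.42% and 0.745% by direction). At an unadjusted p under 0.05, 3 members were higher in BMDM and 0 in MG in limma, against 18.3% and 4.75% of all genes, and no other tool was run for this ratio. The Hdac5 call was lost without MG 3, BMDM 1, BMDM 2 or BMDM 3 (adjusted p 0.0770 to 0.17), where 0 genes passed in all.

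**Figure D3:**
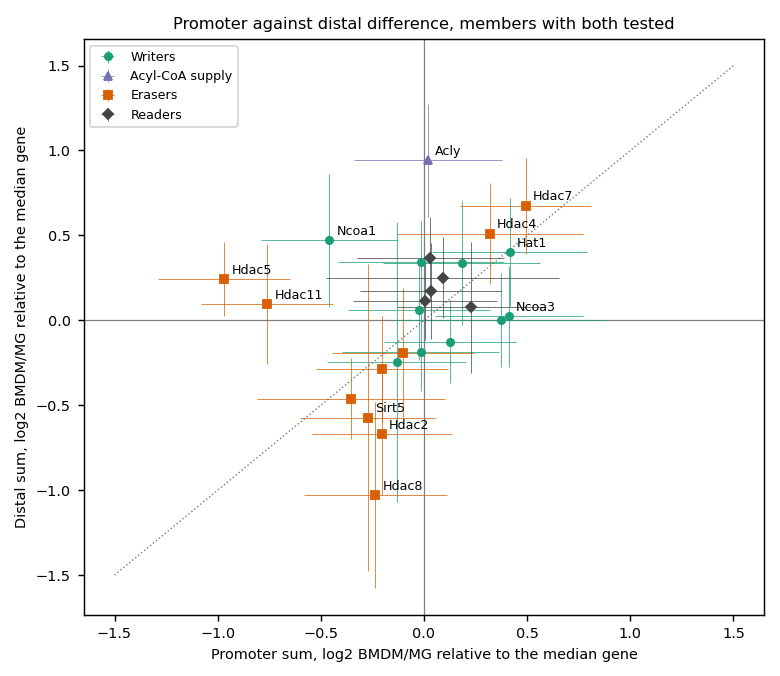
Difference of the promoter sum (horizontal) against that of the distal sum (vertical) for the 26 members with both tested, each as log2 BMDM over MG relative to the median gene; crosses are standard errors and the dotted line marks equal values. Hdac5 lies at -0.97 and 0.24 and Hdac11 at -0.76 and 0.10. Hdac7 and Hdac4 are above 0 on both axes, as are several other members, and neither passed the test on either axis.

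Hdac11, the sole class IV deacetylase, removes long-chain fatty acyl groups from lysine and is known as a regulator of interleukin 10 in myeloid cells. Its promoter sum was 513, 519 and 517 normalized counts in MG 1 to 3 and 307, 242 and 197 in BMDM 1 to 3. The MG libraries were nearly equal and all BMDM libraries lay below them. The difference was -0.76 ± 0.32 (log2, SE) with an adjusted p of 0.0104. MG 1, with the lowest neural and glial marker signal of the MG libraries, was as high as MG 2 and MG 3, and the part of other cells in this difference was not tested. The call was lost without MG 3 (adjusted p = 0.125), without BMDM 2 (0.0707) and when MG 1 stood alone for MG (0.295). The start-site peak chr6:91156290-91157181 carried most of the sum and held 430.0, 402 and 410.1 normalized counts in MG 1 to 3 and 238, 171 and 119.6 in BMDM 1 to 3. It passed on its own, at -1.15 ± 0.32 (log2, SE) with an adjusted p of 0.0453, and was in every library's peak list. Its 2 distal peaks summed to 50.8, 90.7 and 49.6 normalized counts in MG 1 to 3 and 53.6, 58.3 and 70.7 in BMDM 1 to 3 with overlapping groups. The RefSeq window inside this called peak is chr6:91156565-91156864 on the + strand, and the capitals are the reverse complement of CCAAT.
Hdac11 promoter: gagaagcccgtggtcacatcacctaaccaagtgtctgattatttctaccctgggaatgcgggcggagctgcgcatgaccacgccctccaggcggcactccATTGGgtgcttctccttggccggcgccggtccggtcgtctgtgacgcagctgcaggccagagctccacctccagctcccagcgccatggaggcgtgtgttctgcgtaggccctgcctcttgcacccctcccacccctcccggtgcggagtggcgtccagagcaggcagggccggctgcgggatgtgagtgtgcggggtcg

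Hdac10, a class IIb enzyme that deacetylates polyamines, was the third promoter called. Its single peak held 582, 1045 and 690.0 normalized counts in MG 1 to 3 and 486, 409 and 322 in BMDM 1 to 3. MG 2 was the highest library, and all BMDM libraries were below MG. The difference was -0.59 ± 0.33 (log2, SE) with an adjusted p of 0.0497. Without MG 2 it was -0.30 (adjusted p = 0.386), and -0.04 (adjusted p = 0.691) when MG 1 stood alone for MG. The call was lost in 11 of 16 settings. MG 2 was also the library with the highest neural and glial marker signal, and the part of that signal in the Hdac10 value was not tested.

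In the remaining class I and class IIb enzymes no promoter was called. Hdac1 and Hdac2, the catalytic subunits of the Sin3, NuRD and CoREST complexes, lay at 0.02 and -0.20. Hdac3, the enzyme of the NCoR complexes, lay at 0.03, with 427 to 448 normalized counts in MG and 283 to 417 in BMDM. It was lower in every BMDM library, with an unshifted difference of -0.29, near that of the median gene. Hdac6, the tubulin deacetylase, was lower in every BMDM library, at 662, 604 and 548 normalized counts in MG 1 to 3 and 499.9, 479.8 and 246 in BMDM 1 to 3, with a difference of -0.32 ± 0.32 (log2, SE) with an adjusted p of 0.222. Hdac8 lay at -0.24. Its 7 distal peaks summed to 81.7, 345 and 166 normalized counts in MG 1 to 3 and 45.6, 75.1 and 125 in BMDM 1 to 3. MG 2 was the highest and MG 1 lay within the BMDM range, with a difference of -1.03 ± 0.55 (log2, SE) with an adjusted p of 0.255. Without MG 1 the Hdac8 distal sum passed (-1.52, adjusted p = 0.00502), in a fit where 13.6% of all distal sums passed as higher in MG and 7.91% as higher in BMDM. That fit holds MG 2 and MG 3, the libraries with more neural and glial marker signal, whose part in the value was not tested. Distal counts of Hdac2, 61.9, 88.0 and 76.8 normalized counts in MG 1 to 3 and 33.7, 38.2 and 61.6 in BMDM 1 to 3, were lower in every BMDM library, at -0.67 ± 0.36 (log2, SE) with an adjusted p of 0.230.

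Hdac4 and Hdac7, class IIa deacetylases like Hdac5, had promoter sums that did not pass the test, while single regions in or near the genes were more open in BMDM. Over the module 16 of 249 tested peaks passed (6.43%, against 6.87% of all peaks), 14 higher in BMDM (5.62%, against 5.33%) and 2 higher in MG (0.80%, against 1.54%). Of the 14, 13 were distal, 7.34% of 177 distal member peaks tested against 6.36% of all distal peaks, while 0 distal member peaks were higher in MG against 1.04% (7.4% of distal peaks in either direction). Of the 72 promoter-class peaks 1 was higher in BMDM and 2 in MG, against 3.04% and 2.64% of all such peaks (5.68% in either direction). Hdac4 and Hdac7 held 6 and 4 of the 14, Trim33 3 and Ep300 1. Groups overlapped in 0 of the 14, which the call itself favours. Of the 14, 12 were in no MG peak list, and only 8 were in 2 or more BMDM lists. All 16 also had an adjusted p under 0.05 in the authors' deposited table, which calls 29 of the 267 member peaks (10.9%, against 14.4% of all peaks), 20 higher in BMDM (9.06% of all peaks) and 9 higher in MG (5.38%). In limma no peak of the whole table passed without MG 3, without BMDM 1 or without BMDM 2, and of the 16 member peaks 5 remained without BMDM 3 and 16 without MG 1 or without MG 2. With voom weights 0 peaks of the whole table passed, the 16 included, and the lowest adjusted p was 0.0505. The T, NK and B cell marker signal was higher in the BMDM libraries too. Of 21 tested peaks of neutrophil markers 5 were called higher in BMDM and 0 in MG, though the summed neutrophil counts overlapped. The part of these other cells in the peaks higher in BMDM was not tested.

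**Figure D4:**
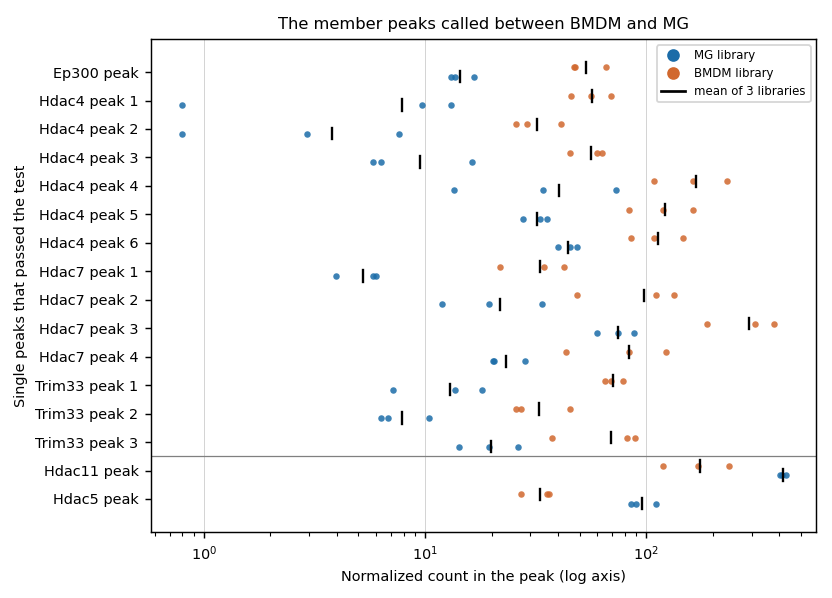
Normalized counts of the 16 called member peaks in each library on a log axis; the peaks are numbered within a gene by falling difference, points are libraries and bars are means of 3. The 14 peaks above the line are higher in every BMDM library, and the Hdac11 and Hdac5 peaks below it are higher in every MG library.

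Hdac4 had 3 promoter and 27 distal peaks. Its promoter sum was 2439, 1543 and 1731 normalized counts in MG 1 to 3 and 2979.5, 1742 and 1268 in BMDM 1 to 3, with overlapping groups at 0.32 ± 0.45 (log2, SE) with an adjusted p of 0.996. Its 27 distal peaks summed to 1227, 2022 and 1262 normalized counts in MG 1 to 3 and 2178, 2166 and 1524 in BMDM 1 to 3. Of these sums MG 2 was within the BMDM range, and the difference was 0.51 ± 0.30 (log2, SE) with an adjusted p of 0.449. The sum hid single peaks that moved: of 24 distal peaks tested 6 were called, all higher in BMDM, and the 24 differences ran from -1.76 to 3.28 with a median of 1.08.

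Of the 6 Hdac4 peaks, 5 lie in the second intron of 1 annotated transcript, 76327 to 131274 bases from the RefSeq 5′ end by their centres. The peak chr1:92119048-92119703 held 0.793, 13.1 and 9.72 normalized counts in MG 1 to 3 and 45.6, 69.3 and 56.2 in BMDM 1 to 3, where 0.79 is 1 read. Its difference was 3.28 ± 0.73 (log2, SE) with an adjusted p of 0.0374, and over the settings it ran from 2.30 to 5.06, the highest with MG 1, which is under the 3-read level, as the only MG library. The neighbours chr1:92086244-92086563 and chr1:92086817-92087205 followed it. The former held 0.793, 7.65 and 2.92 normalized counts in MG 1 to 3 and 25.8, 41.4 and 29.0 in BMDM 1 to 3, at 3.18 ± 0.74 (log2, SE) with an adjusted p of 0.0404. The latter held 6.35, 16.4 and 5.83 normalized counts in MG 1 to 3 and 63.5, 60.2 and 45.3 in BMDM 1 to 3, at 2.70 ± 0.48 (log2, SE) with an adjusted p of 0.0265. In all of these the highest MG library stayed below the lowest BMDM library.

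The peak chr1:92079812-92080433 was larger and its MG libraries were close to each other, with 27.8, 35.5 and 33.0 normalized counts in MG 1 to 3 and 119, 163 and 83.3 in BMDM 1 to 3. Its difference was 1.98 ± 0.35 (log2, SE) with an adjusted p of 0.0265. The peak chr1:92064136-92064721 had a wider MG spread, highest in MG 2, at 13.5, 73.2 and 34.0 normalized counts in MG 1 to 3 and 163, 232 and 109 in BMDM 1 to 3. Its difference was 2.4 ± 0.55 (log2, SE) with an adjusted p of 0.0414. The sixth, chr1:92250766-92251412, is intergenic, at -55067 bases from the start site in the authors' table. It held 45.2, 48.6 and 39.8 normalized counts in MG 1 to 3 and 109, 147 and 85.1 in BMDM 1 to 3 and was in all 3 MG and all 3 BMDM peak lists, so both cell types were open there and BMDM more so. Its difference was 1.44 ± 0.33 (log2, SE) with an adjusted p of 0.0439.

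The Hdac4 promoter window is shown beside these intronic peaks because it was open in all libraries at a level that did not separate the groups. It is chr1:92180292-92180591 on the - strand, inside a start-site peak with 2433, 1320.1 and 1648 normalized counts in MG 1 to 3 and 2959.7, 1717 and 1212 in BMDM 1 to 3. Capitals mark CCAAT and GGGCGGGG or their reverse complements.
Hdac4 promoter: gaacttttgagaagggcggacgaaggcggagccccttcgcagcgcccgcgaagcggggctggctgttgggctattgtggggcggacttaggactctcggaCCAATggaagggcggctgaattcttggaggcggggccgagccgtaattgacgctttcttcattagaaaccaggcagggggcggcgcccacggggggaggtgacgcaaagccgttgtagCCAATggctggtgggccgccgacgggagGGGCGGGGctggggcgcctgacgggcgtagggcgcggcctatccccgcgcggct

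Hdac7, a class IIa deacetylase known from lymphocytes, endothelium and macrophages, had 2 promoter and 6 distal peaks, of which 1 and 3 passed, all higher in BMDM. The intronic peak chr15:97821007-97821827 held 60.3, 88.0 and 74.8 normalized counts in MG 1 to 3 and 309, 380.1 and 188 in BMDM 1 to 3. Its difference was 2.05 ± 0.35 (log2, SE) with an adjusted p of 0.0260. The peak chr15:97836731-97837167, also intronic, held 3.97, 6.01 and 5.83 normalized counts in MG 1 to 3 and 21.8, 42.7 and 34.4 in BMDM 1 to 3, at 2.54 ± 0.55 (log2, SE) with an adjusted p of 0.0354. The third intronic peak, chr15:97824072-97824284, held 11.9, 33.9 and 19.4 normalized counts in MG 1 to 3 and 111, 134 and 48.9 in BMDM 1 to 3, at 2.26 ± 0.49 (log2, SE) with an adjusted p of 0.0370. The fourth, chr15:97816542-97817050, is of the promoter class, 1 to 2 kb from a start site inside the gene, and held 20.6, 28.4 and 20.4 normalized counts in MG 1 to 3 and 83.3, 124 and 43.5 in BMDM 1 to 3. Its difference was 1.84 ± 0.43 (log2, SE) with an adjusted p of 0.0443. BMDM 3 was the lowest BMDM library in 3 of the 4 and still above every MG library.

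These regions stand apart from the Hdac7 start. The start-site peak chr15:97830703-97832078 held 271, 278 and 315 normalized counts in MG 1 to 3 and 321, 346 and 185 in BMDM 1 to 3, with overlapping groups and a difference of 0.07. The promoter sum differed by 0.49 ± 0.32 (log2, SE) with an adjusted p of 0.774. The distal sum was 638, 823 and 678 normalized counts in MG 1 to 3 and 1083, 1405 and 754 in BMDM 1 to 3, so only BMDM 3 lay within the MG range, at 0.67 ± 0.28 (log2, SE) with an adjusted p of 0.275. Hdac7 is also 1 of 3 members that pass in a second, gene-level comparison of the authors' deposited table, with a log2 fold change of 1.65 and an adjusted p of 0.00659. The others are Hdac1 at -1.54 (0.0468) and the reader Mllt3 at -1.13 (0.00275). The share was 7.89% of 38 members, against 9.51% of all genes (5.46% positive and 4.04% negative). Other members did not pass there, and some had the opposite sign to their chromatin: Hdac5 was at 0.98 (adjusted p 0.207) and Hdac8 at 1.67 (0.0557), both positive, while Hdac11 was at -1.58 (0.781), Hdac10 at -0.76 (0.847), Hdac4 at 0.38 (0.552) and Trim33 at -0.37 (0.587). No label names the assay behind that comparison. Its microglial markers are negative and its monocyte markers positive, for example Sparc at -3.63 and Ccr2 at 4.98.

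**Figure D5:**
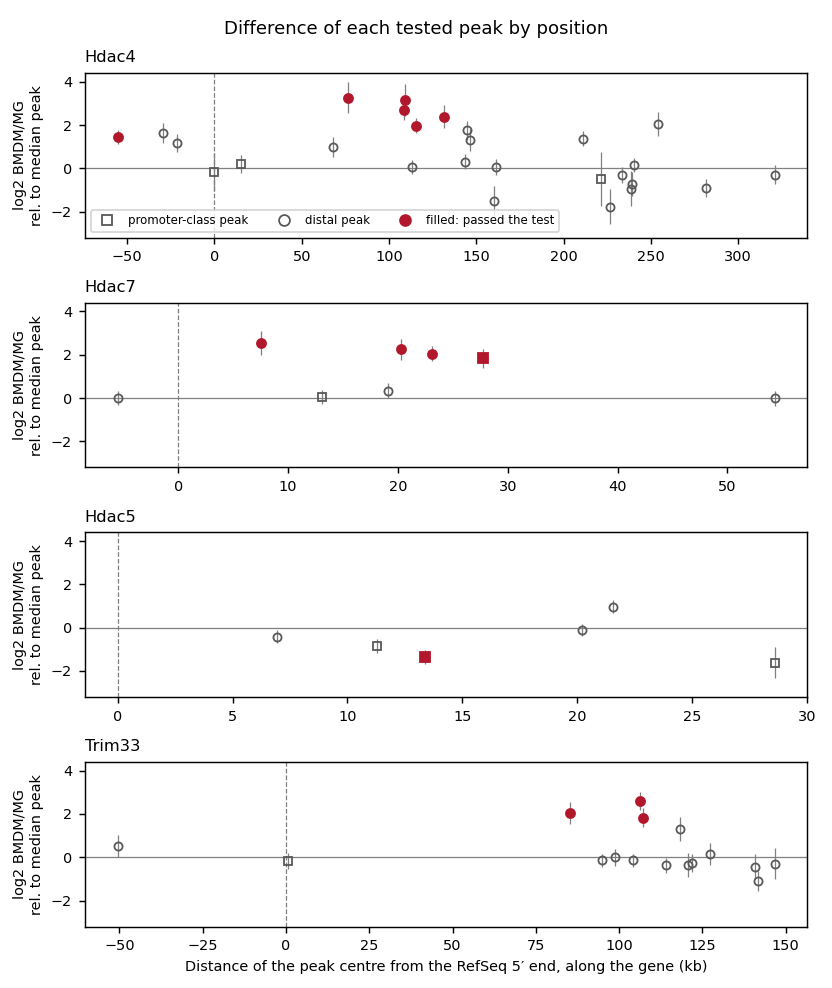
Difference of each tested peak (log2 BMDM over MG relative to the median peak, bars are standard errors) by distance of its centre from the RefSeq 5′ end of Hdac4, Hdac7, Hdac5 and Trim33, in kb along the gene. Squares are promoter-class peaks, circles distal ones, and filled symbols passed the test: inside Hdac4 and Hdac7 they are all above 0, and in Hdac5 the filled square is below 0.

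Hdac9 is the fourth class IIa enzyme. Its 25 distal peaks summed to 1398, 1029 and 982 normalized counts in MG 1 to 3 and 706, 761 and 795 in BMDM 1 to 3. All BMDM libraries were below all MG libraries, and MG 1 was the highest. The difference was -0.46 ± 0.24 (log2, SE) with an adjusted p of 0.195. None of the 25 passed alone, with 10 lower in every BMDM library and 1 higher (12.9% and 17.0% of all peaks). The lowest p belonged to an intronic peak, chr12:34664880-34665244, with 57.1, 50.8 and 41.8 normalized counts in MG 1 to 3 and 23.8, 19.4 and 12.7 in BMDM 1 to 3, at -1.27 ± 0.39 (log2, SE) with an adjusted p of 0.0575. The Hdac9 promoter held 108, 46.5 and 55.4 normalized counts in MG 1 to 3 and 23.8, 42.1 and 67.0 in BMDM 1 to 3, overlapping between groups.

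The sirtuins remove acyl groups in an NAD-dependent reaction. Sirt2, mostly cytoplasmic, was the single member whose promoter was higher in every BMDM library, with 421, 344 and 343 normalized counts in MG 1 to 3 and 573, 646 and 424 in BMDM 1 to 3. Its difference was 0.87 ± 0.32 (log2, SE) with an adjusted p of 0.305. With totals of reads in peaks it passed (0.87, adjusted p = 0.0184), as it did with cyclic loess (0.96, adjusted p = 0.00463). In these fits the median promoter lay at -0.12 and -0.01 against -0.31, and the SE of Sirt2 was 0.14 and 0.12 against 0.32. Its RefSeq start is in a peak given to the neighbouring Nfkbib, with 2448, 1343 and 1652 normalized counts in MG 1 to 3 and 2557, 1939 and 1150.4 in BMDM 1 to 3. There the groups overlapped and the difference was 0.16.

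Sirt3, the main mitochondrial deacetylase, had 1 distal peak, higher in every BMDM library at 57.1, 62.3 and 51.5 normalized counts in MG 1 to 3 and 117, 162 and 83.3 in BMDM 1 to 3. The difference was 1.14 ± 0.33 (log2, SE) with an adjusted p of 0.117. The peak over the Sirt3 start belongs to Psmd13 in the authors' table and overlapped between groups, at -0.12. Sirt4, mitochondrial too, was lower in every BMDM library at its promoter, with 410.1, 512 and 402 normalized counts in MG 1 to 3 and 345, 323 and 257 in BMDM 1 to 3, and differed by -0.20 ± 0.32 (log2, SE) with an adjusted p of 0.340. Its 7 distal peaks overlapped, at -0.29. Sirt5, which removes succinyl and malonyl groups, lay at -0.27 at the promoter. Its distal sum varied widely, at 6.35, 67.8 and 40.8 normalized counts in MG 1 to 3 and 7.93, 12.3 and 41.7 in BMDM 1 to 3, and was highest in MG 2. Sirt1, a nuclear deacetylase, lay at -0.10 and -0.19 for promoter and distal sums, with overlapping groups.

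The readers showed no promoter or distal sum past the threshold, and their promoter differences ran from -0.07 to 0.23. Brd2 and Brd3 are BET proteins that bind acetylated histone tails. The Brd2 promoter, a single wide peak, held 5039, 2579.5 and 3133 normalized counts in MG 1 to 3 and 4247, 3206 and 1880.5 in BMDM 1 to 3, and lay at 0.09. Its distal sum was 328, 267 and 242 normalized counts in MG 1 to 3 and 349, 285 and 284 in BMDM 1 to 3, at 0.25 ± 0.24 (log2, SE) with an adjusted p of 0.756. Brd3 lay at 0.23 and 0.08. All groups overlapped. The YEATS reader of the ATAC complex, Yeats2, gave 749, 417 and 472 normalized counts in MG 1 to 3 and 456, 464 and 315 in BMDM 1 to 3 at its promoter. Its groups overlapped at -0.07 ± 0.32 (log2, SE) with an adjusted p of 0.516.

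Mllt1 and Mllt3 are YEATS readers of the elongation machinery. The Mllt3 promoter held 893, 748 and 776 normalized counts in MG 1 to 3 and 799, 775 and 467 in BMDM 1 to 3, at 0.03 ± 0.34 (log2, SE) with an adjusted p of 0.663. Its distal sum was 228, 374 and 260.5 normalized counts in MG 1 to 3 and 232, 355 and 306 in BMDM 1 to 3, at 0.17 ± 0.28 (log2, SE) with an adjusted p of 0.917. Neither separated the groups. Mllt1 had a distal sum of 295, 215 and 205 normalized counts in MG 1 to 3 and 286, 295 and 261 in BMDM 1 to 3, at 0.36 ± 0.24 (log2, SE) with an adjusted p of 0.564, and a promoter difference of 0.03. An internal promoter-class peak of Mllt1, chr17:56906187-56906635, was low in MG, with 3.17, 8.20 and 4.86 normalized counts in MG 1 to 3 and 17.9, 31.1 and 38.0 in BMDM 1 to 3. It was higher in every BMDM library and narrowly missed the threshold, at 2.37 ± 0.61 (log2, SE) with an adjusted p of 0.0549.

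Trim33, a bromodomain protein that works with Smad factors, held the other called peaks. Its promoter gave 1129.7, 740.1 and 857 normalized counts in MG 1 to 3 and 875, 869 and 495 in BMDM 1 to 3, overlapping at 0.00 ± 0.35 (log2, SE) with an adjusted p of 0.637. Its 15 distal peaks summed to the same level in both groups, with 930.0 to 1211 in MG and 972 to 1099 in BMDM. Within that sum 3 peaks passed, all higher in BMDM and all beyond the RefSeq end of the gene, by 5459 to 27429 bases. The first, chr3:103385460-103385838, held 7.14, 18 and 13.6 normalized counts in MG 1 to 3 and 69.4, 79.0 and 65.2 in BMDM 1 to 3, at 2.59 ± 0.42 (log2, SE) with an adjusted p of 0.0260. The second, chr3:103386199-103386856, held 14.3, 26.2 and 19.4 normalized counts in MG 1 to 3 and 37.7, 81.6 and 88.8 in BMDM 1 to 3, at 1.83 ± 0.44 (log2, SE) with an adjusted p of 0.0472. The third, chr3:103364229-103364793, held 6.35, 10.4 and 6.80 normalized counts in MG 1 to 3 and 25.8, 45.3 and 27.2 in BMDM 1 to 3, at 2.05 ± 0.50 (log2, SE) with an adjusted p of 0.0499. The nearest-start rule gave these regions to Trim33, and what they regulate was not tested.

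Partners of these enzymes were read with the same fits. Among all promoter sums, 2.75% passed with BMDM higher and 9.16% with MG higher. Of 30 promoters of acetyltransferase complex partners 0 were called, with 0 higher in BMDM and 3 in MG at an unadjusted p under 0.05. Of 28 deacetylase complex partners 2 were higher in MG: Rcor2, a CoREST subunit (-0.84, adjusted p = 0.00714), and Tbl1x, an NCoR subunit (-0.65, adjusted p = 0.0430). Of 23 other readers 2 were higher in MG: Cecr2 (-1.13, adjusted p = 0.000291) and Dpf1 (-1.0, adjusted p = 0.00111). MG 2 and MG 3 had more neural and glial marker signal than MG 1. The part of that signal in the Rcor2, Tbl1x, Cecr2 and Dpf1 values was not tested. Of 17 genes of acyl-coenzyme A and NAD supply 0 were called, with 0 and 2 at an unadjusted p under 0.05. The medians of the 4 lists were -0.03, 0.10, -0.01 and 0.00, beside 0 for all genes by construction.

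Among distal sums of partners the calls were Chd4, the NuRD remodeller (-1.26, adjusted p = 0.0477), and Mcrs1, an NSL subunit (-1.15, adjusted p = 0.0486), both higher in MG. Chd4 held 768, 866 and 726 normalized counts in MG 1 to 3 and 339, 304 and 270 in BMDM 1 to 3. Mcrs1 held 594, 555 and 570 in MG and 274, 255 and 196 in BMDM. They were 1 of 21 deacetylase partners and 1 of 25 acetyltransferase partners, against 0.3% of all distal sums higher in MG. None of the 19 other readers and 12 supply genes passed. At an unadjusted p under 0.05 in limma, 0 and 3 were higher in BMDM and 2 and 0 higher in MG. Limma with voom weights called 0 distal sums in the whole table. Without MG 3, BMDM 1, BMDM 2 or BMDM 3, limma also called 0 distal sums in the whole table, so the Chd4 and Mcrs1 calls were lost there.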

How the data were processed

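ATAC-seq was measured in 3 MG and 3 BMDM libraries, grouped by their titles. Per the submitters' processing notes, reads met cutadapt 1.8.1 and Bowtie2 2.4.1 (build mm10), peaks MACS2 2.1.1.20160309 and annotation ChIPseeker 1.32.1, and the authors used DESeq2 1.36.0. Settings, duplicate removal and any shift of reads for Tn5 are not given in the sources used. The library columns that the authors deposited are log2 values, variance-stabilized. Fold changes, p-values and adjusted p-values in the authors' deposited table come from the authors' own test. The deposited peak lists, with a score, a −log10 p, a fold ratio and a signal per peak by the authors, were used for overlap by at least 1 base only. A further 8 per-sample columns could not be matched to the labels and stayed out.

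Of 92929 distinct peaks, 65 had no annotation and were left out. Inverting the transformation gave normalized counts (relative deviation from the deposited means at most 2.37e-06) and, times the size factors, whole reads (within 0.02 read) for 99.999% of peaks or more. On log2(normalized count + 1), a scale that understates the change of low peaks, limma 3.58.1 in R 4.3.3 was run with its trend option for features with a mean of at least 10. Tests were two-sided with Benjamini-Hochberg adjustment over all features. The recovered reads served as a check, and no count test was run on them here. The authors' deposited adjusted p-values were set beside the limma calls. In data simulated from these libraries the promoter, distal and peak fits recovered 15%, 21% and 1% of 2-fold changes. They recovered 96%, 90% and 31% of 4-fold changes. The simulation changed few features, used a single dispersion per fit and held no further shifts of whole libraries. Recovery in the real data may therefore differ. The members, partner lists, markers and motifs were chosen with earlier results of these data known. The genes given in full were, by rule, the members that passed, the 3 with the smallest p per role (1 for acyl-coenzyme A supply) for promoter and distal sums, Ep300 and Crebbp, and every peak that passed. Other genes given library by library were chosen after their values were seen. Promoter windows and gene ends are from RefSeq (GRCm38.p6).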

Additional observations from a re-analysis of the deposited data

How the results depend on the processing

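Every called sum and peak kept its direction in all settings run. Hdac5 lost its promoter call in 1 of 16 settings, Hdac11 in 3 and Hdac10 in 11, and the Hdac5 distal over promoter call was lost in 4 of 15. Promoters called higher in BMDM numbered 0, but 1 (Sirt2) with totals of reads in peaks and 2 (Sirt2 and Ncoa3) with cyclic loess. Promoters called higher in MG numbered 3, and 0 when MG 1 stood alone for MG (added after the data were seen). They numbered 1 to 3 when single libraries were left out. Distal sums called higher in MG were 0 to 1 without single libraries (Hdac8 without MG 1), and the distal over promoter calls 0 to 1. Peaks called higher in BMDM numbered 14, against 0 with voom weights, 23 with MG 1 alone and 0 to 24 without single libraries. Peaks called higher in MG numbered 2, against 5 with cyclic loess, 0 with voom weights, 7 with MG 1 alone, 9 in the authors' deposited table and 0 to 24 without single libraries. Fits without 1 library have fewer samples, and the cause of these shifts was not tested.

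Whether the replicate numbers pair the libraries is not stated in the labels. Deviations of same-numbered libraries correlated at 0.44, -0.06 and 0.36, and MG 2 matched BMDM 3 best (0.42). With 3 libraries per group these values cannot tell whether the libraries are paired. A replicate block raised the peak calls to 23 (BMDM) and 10 (MG) and the promoters higher in MG to 4 (Ncoa1 added).

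Some values that were never called changed sign, among them Kat2a (-0.43 in the promoter sum), Mllt1 (0.36, distal) and Brd2 (0.25, distal). With MG 1 alone they were 0.033 (Kat2a promoter), -0.14 (Trim33 promoter), -0.054 (Crebbp distal), -0.13 (Mllt1 distal) and -0.16 (Brd2 distal). With cyclic loess they were -0.015 (Acly promoter), 0.026 (Yeats2 promoter) and -0.0049 (Trim33 promoter). With voom weights they were -0.025 (Trim33 promoter) and -0.00021 (Crebbp distal). With promoter peaks within 1 kb only, Ep300 was 0.0016. Leaving out single libraries gave -0.058 to 0.073 for the Acly promoter, -0.19 to 0.079 for the Yeats2 promoter, -0.085 to 0.088 for the Trim33 promoter, -0.0070 to 0.095 for the Mllt3 promoter, -0.13 to 0.11 for the Ep300 promoter, -0.24 to 0.17 for the Crebbp promoter and -0.061 to 0.22 for the Crebbp distal. The voom fit was not run for distal over promoter. In single peaks 1% of simulated 2-fold changes were recovered, so a change of that size could go uncalled.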
